A study of Rattus norvegicus with 4 samples.

Results

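The cells described here are neutrophils of the rat hippocampus, chosen by their transcripts from 28879 kept cells of 31638 deposited barcodes. A kept cell had at least 500 unique molecular identifiers (UMIs, 1 for each captured transcript), at least 300 genes and at most 20% of its UMIs from the mitochondrial Mt- genes. A kept cell was taken as a neutrophil when it held at least 10 UMIs each of S100a8 and S100a9, at most 5 of C1qa, C1qb and C1qc together, at most 3 of Cldn5 and Flt1 together, and at most 5 of Mag, Mog and Mobp together. The last 3 limits kept out microglia and macrophages, endothelial cells and oligodendrocytes. The rule gave 93 cells, 0.322% of kept cells (exact binomial 95% interval 0.260 to 0.394%, counting error only).

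The study prepared single-cell suspensions from the hippocampus of male adult Sprague Dawley rats of 10 to 12 months and 250 to 300 g, labelled wild type, and sequenced them with the 10x Genomics 3′ version 3 chemistry. Its 4 titled samples were NC, a negative control; MCAO, with the middle cerebral artery of 1 side occluded by a monofilament; DEPR, with chronic stress; and MD, whose description also names chronic stress and whose abbreviation is not spelled out. The design text describes 20 rats in 2 groups of 10, all occluded and 1 group then stressed, with hippocampi of 5 rats per group sequenced. Red cells were lysed during preparation, and whether the animals were perfused is not given in the sources used here, so neutrophils in tissue and in blood left in vessels cannot be told apart. All libraries lie in 1 matrix whose barcodes carry the endings 1 to 4, and no label ties an ending to a titled sample. The endings are therefore called barcode sets 1 to 4, no condition is compared, and no p-value is given: every difference below is between cell classes or unassigned sets, with intervals that cover counting error only.

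Neutrophils are short-lived white blood cells made in the bone marrow and the earliest to reach injured tissue. They load their granules in order while they mature: primary granules with myeloperoxidase and elastase, then secondary granules with lactoferrin and collagenase, then tertiary granules with gelatinase. Mature cells hold S100a8 and S100a9, the subunits of calprotectin, at very high levels, follow chemokines through Cxcr2, and enter the brain after stroke.

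Of 113 barcodes with both S100 minima, 4 had fewer than 300 genes and 16 of the other 109 passed the limit of another type, 10 of them that for C1q. The 93 cells numbered 21, 43, 7 and 22 in sets 1 to 4, or 0.320, 0.521, 0.132 and 0.251% of each set's kept cells. The interval of set 2 (0.377 to 0.701%) lay above that of set 3 (0.0530 to 0.271%), and those of sets 1 and 4 overlapped all others. Blood haemoglobin differed between the same sets: Hba-a2 stood at 15256, 8260, 1156 and 1748 CPM (UMIs of the gene per 1000000 UMIs) in the other kept cells of sets 1 to 4. Its part in the neutrophil share was not tested. Just outside the S100 minima lay 9 cells with at least 5 UMIs of both genes and 5 to 9 of at least 1 of them, with medians of 9 S100a8 and 14 S100a9 UMIs. The 13 cells inside with fewer than 20 UMIs of either gene had medians of 13 and 28. Cell barcodes shared between sets numbered 192, and 1 of them belonged to a neutrophil. The doublet caller Scrublet marked 2.43 to 3.81% of kept cells per set and none of the 93.

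The label held for most of the cells, and 9 of the 93 were set aside because they went against it. In 6 cells, Plac8 and Fn1, known in monocytes, together reached at least 20 UMIs, and these cells held 32 to 841 UMIs of the lysozyme gene Lyz2. The other 3 cells held 49, 139 and 174 UMIs of Mzb1 and 1085 to 8847 UMIs of the immunoglobulin heavy chain gene Igh-6, both genes of antibody-secreting cells. These 9 cells had 16 to 322 S100a8 UMIs and 0.0856 to 4.38% of their UMIs from S100a8 and S100a9. They were also much deeper: they held 160687 of the 367235 UMIs of the 93 cells, 43.8%, and a single Mzb1 cell held 24289 of the 37201 UMIs of set 3. Since sums over cells follow the deepest cells, values below are for the 84 cells left unless stated, a choice made after the values were seen, and counts are given for both. The 84 cells (19, 38, 6 and 21 in sets 1 to 4) held 206548 UMIs, with a median of 2301.5 UMIs and 701 genes per cell. They still include a doubtful cell of set 4, with 34 S100a8, 11 S100a9 and 42 Lyz2 UMIs and 13.4% mitochondrial UMIs. It had no UMI of Mmp8, Retnlg, Il1b, Cxcl2, Cxcr2 or Csf3r.

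Of 15 neutrophil markers, 13 had UMIs in the 84 cells, and the markers summed to 147418 to 244738 CPM per set. Of the 43627 UMIs in this sum, 14512 were of S100a8 and 26919 of S100a9. Both genes chose the cells, so the sum is no support for the label. Cxcr1, a chemokine receptor, and Ltf, which encodes lactoferrin of secondary granules, were at 0, and a count of 0 among 206548 UMIs allows up to 14.5 CPM (3 counts of the total). All 8 basophil and mast cell markers and all 9 T cell markers were at 0. Of 7 eosinophil markers only Siglec5 was found, at 60.2 to 232 CPM per set. Microglial markers were found for 10 of 12 genes at 683 to 1244 CPM, with P2ry12 and Siglech at 0, and endothelial markers for 6 of 10 at 30.1 to 155 CPM. All 10 oligodendrocyte markers were found, at 351 to 929 CPM in sum. These 3 lists include genes that the rule had capped: C1qa, C1qb, C1qc, Cldn5, Flt1, Mag, Mog and Mobp. Of 15 monocyte markers 9 were found, at 7900 to 13585 CPM, with Vcan, F13a1, Ms4a7, Ace, Gpr141 and Chi3l3 at 0. This list includes Plac8 and Fn1, by which 6 cells had been set aside. Those 6 cells held all 118 Vcan UMIs of the 93 cells, so Vcan at 0 follows from setting them aside. The part of other cells' RNA in these levels was not tested.

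S100a8 and S100a9 chose the cells, so their levels are a description. S100a8 stood at 66337, 83578, 62965 and 46739 CPM in sets 1 to 4, against 27.5, 68.0, 2.09 and 2.34 CPM in the other kept cells. S100a9 stood at 134503, 152605, 110208 and 81205 CPM, against 51.7, 128, 3.37 and 3.83 CPM. Among 13715 cells rich in C1q, which should lack both genes, 0.911% held a S100a8 UMI and 1.44% a S100a9 UMI at a median of 5079 UMIs per cell, and these shares were highest in set 2, at 1.62 and 2.70%. With a median of 1.80 S100a9 UMIs per S100a8 UMI, the subunits followed each other from cell to cell. Over the 84 cells their Spearman rho was 0.94 for UMIs and 0.89 for shares of a cell's UMIs. Together they made up 1.43 to 48.5% of a cell's UMIs, with a median of 16.9%. The median was 22.6, 21.8, 10.8 and 7.80% in sets 1 to 4. It was thus smaller in sets 3 and 4, but set 3 held only 6 cells, which ranged from 2.83 to 37.2%.

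**Figure D1:**
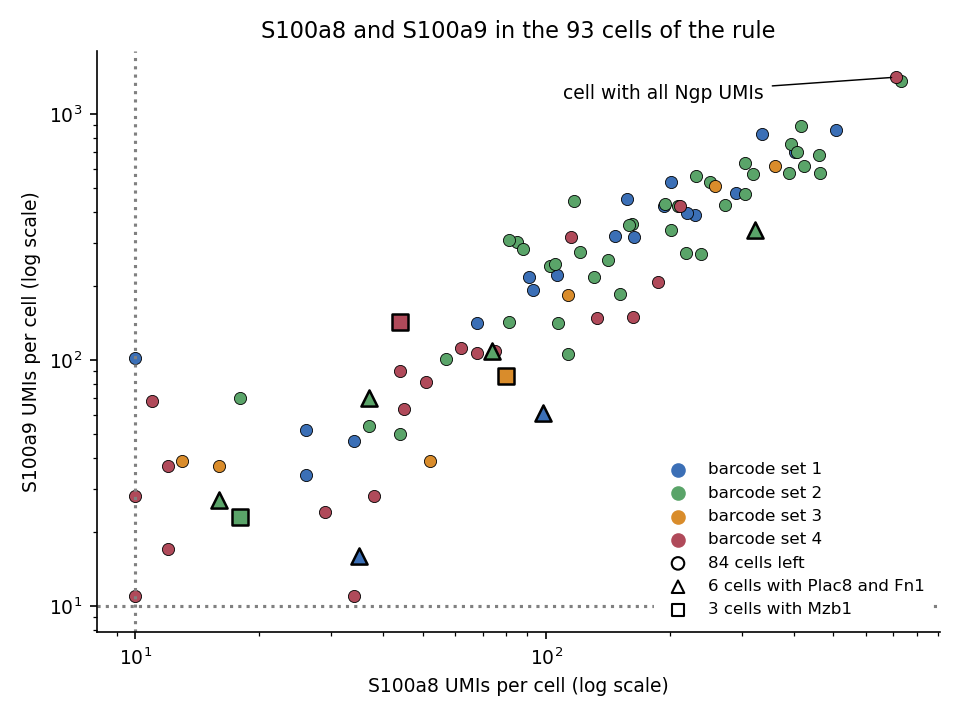
S100a8 (x) and S100a9 (y) UMIs per cell on log scales for the 93 cells, coloured by barcode set; dotted lines mark the minimum of 10 UMIs, triangles the 6 cells with Plac8 and Fn1 and squares the 3 cells with Mzb1. The 84 other cells reach 732 S100a8 and 1411 S100a9 UMIs, and their median S100a8 is 157 and 178.5 UMIs in sets 1 and 2 against 82.5 and 45 in sets 3 and 4.

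To describe what else set these cells apart, UMIs were summed within each set over the neutrophils and over the other kept cells. A gene was measured when observed plus expected UMIs reached 10 in every set, and counted when its CPM ratio was at least 2 in the same direction in every set. A count of 0 was set to 3 for the ratio, which is then a bound in that set. Over all 93 cells, 87 of 708 measured genes were higher (12.3%) and 168 lower (23.7%). For the 84 cells, 84 of 306 were higher (27.5%) and 122 lower (39.9%), and 63 of the higher and 64 of the lower genes were shared with those of the 93. The median log2 ratio of all measured genes was -0.66 for the 93 cells and -0.72 for the 84, and ratios are best read against these medians. The minimum bears on these counts: for the 84 cells, 79 of the 84 higher genes reached it only through the neutrophils' own UMIs, and 114 of the 122 lower genes only through the UMIs expected from other kept cells. Such higher genes had to be higher to be measured, and such lower genes were picked by their level in other cells, so these counts and those of lists below describe which genes were found and support no direction. The summed CPM of a list, which covers every matched member, does not depend on the minimum. Leaving out set 3, which had the fewest cells, gave 228 higher and 253 lower genes for the 93 cells, of 1355 measured in place of 708. Calls then also no longer had to hold in that set.

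Secondary granule genes summed to 3879, 6639, 4647 and 19022 CPM in sets 1 to 4, against 12.6 to 27.4 CPM in other kept cells, with most of the set 4 sum from the single cell described next, and tertiary granule genes to 5024, 4493, 5654 and 3170 CPM against 72.2 to 91.0. Of the secondary list, Mmp8, the neutrophil collagenase, Camp, the cathelicidin antimicrobial peptide, and Pglyrp1, a peptidoglycan recognition protein, were measured, each through the neutrophils' own UMIs. Mmp8 stood at 1105, 2076, 774 and 1404 CPM in sets 1 to 4 against at most 2.56 CPM in other kept cells, and was found in 48 of the 84 cells. Pglyrp1 was even across sets, at 1186, 1444, 1394 and 1245 CPM, a log2 ratio of 9.52 to 11.62. Of the tertiary list, measured in the same way, Retnlg, a resistin-like secreted protein of myeloid cells, stood at 3356, 2798, 3098 and 1472 CPM, and the stefin Stfa2, a protease inhibitor, at 261, 231, 1162 and 521 CPM. Retnlg was found in 49 of the 84 cells, and in 0.0583% of the C1q-rich cells. After every cell was thinned to 1000 UMIs, which 83 of the 84 and 13101 of the 13715 C1q-rich cells allowed, these shares were 50.6% and 0.0458%.

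Primary granule genes were almost absent. Of 13 matched genes, 2 had any UMI and these summed to 13 UMIs; Mpo, encoding myeloperoxidase, was at 0 and Elane, encoding elastase, had 12 UMIs in 9 cells. Another single cell of set 4, picked out after its values were seen, looked different. It held all 320 UMIs of Ngp, a neutrophilic granule protein, 213 of the 297 Camp UMIs, 64 of the 80 Lcn2 UMIs and 15 of the 17 Cd177 UMIs of the 84 cells. It also held 709 S100a8, 1411 S100a9 and 167 Anxa1 UMIs, and had 0 UMIs of Il1b, Cxcl2, Cxcr2 and Csf3r. With it, Camp stood at 5095 CPM in set 4, against 241, 471 and 1007 CPM in sets 1 to 3. The other 83 cells thus held 84 Camp UMIs and no Ngp.

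Among genes of sensing and of recruitment, Clec4d, a C-type lectin receptor for fungal and bacterial glycolipids, stood at 2110, 1705, 852 and 1427 CPM in sets 1 to 4, against at most 1.46 CPM in other kept cells. Trem1, a receptor that amplifies inflammatory signals, was higher in the 93 cells (log2 ratio 7.64 to 9.95) and too sparse to be measured in the 84. Mcemp1, a myeloid membrane protein, was also higher, with a log2 ratio of 9.90 to 11.49. Cxcr4, the receptor for Cxcl12 that retains neutrophils in and returns them to the marrow, was the measured member of 12 chemoattractant receptors and stood at 522, 511, 852 and 1268 CPM against 43.7 to 62.8. Cxcr2, the receptor for neutrophil-drawing chemokines, was sparse, with 21 UMIs in 18 of the 84 cells, or 102 CPM (62.9 to 155) against 0.108 in other kept cells. Csf3r, the receptor for granulocyte colony-stimulating factor, had 106 UMIs in 52 cells, or 513 CPM (420 to 621) against 12.7.

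Secreted signals divided by gene. Of 21 cytokine and chemokine genes, 6 were measured in the 84 cells. Il1b, interleukin 1 beta, stood at 7355, 9216, 17348 and 11187 CPM in sets 1 to 4 against 675 to 1272, and Cxcl2, which draws neutrophils, at 4823, 4222, 6815 and 4461 CPM against 491 to 672. Osm, an interleukin 6 family cytokine, and Ccl6, a chemokine, were also higher, with median log2 ratios of 4.10 and 6.61. The macrophage chemokines Ccl3 and Ccl4 were lower, with log2 ratios of -3.78 to -1.13 and -4.04 to -3.26; in the 13715 C1q-rich cells among the others Ccl4 stood at 13575 CPM. Tnf had no UMI in the 84 cells. Among genes that restrain inflammation, Slpi, a secreted inhibitor of neutrophil elastase, stood at 5225, 5957, 6118 and 4370 CPM against at most 20.7, and Anxa1, an annexin that limits neutrophil migration, at 5768, 6689, 3950 and 8016 CPM against at most 58.2. Il1r2, the interleukin 1 decoy receptor, was found in 52 of the 84 cells at 765 CPM, against 4.37 CPM in other kept cells, and Il1rn, the interleukin 1 receptor antagonist, in 41 cells at 334 CPM, against 3.54.

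G0s2, an inhibitor of the triglyceride lipase of fat stores, stood at 18810, 15344, 11849 and 21649 CPM in sets 1 to 4 against 28.2 to 59.2 in other kept cells. Of 4 measured NF-kB feedback genes 2 were higher, against 27.5% of all measured genes. They were Sod2, the mitochondrial superoxide dismutase, and Nfkbia, the inhibitor of NF-kB, with median log2 ratios of 3.53 and 2.62. The transcription factor Cebpb was higher with a median of 3.51. Of 10 measured actin and motility genes 6 were higher, among them Lcp1 and Arpc1b, and 2 were lower, Cfl1 and Tmsb10. Of all measured genes 27.5% were higher and 39.9% lower. Of the 6 higher genes, 5 passed the minimum only through the neutrophils' own UMIs. Alox5ap, the partner protein of leukotriene synthesis, had a log2 ratio of 3.57 to 4.11.

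Interferon-response genes, 25 on the list and 23 with UMIs in the neutrophils, summed to 13364, 9988, 15954 and 9579 CPM in sets 1 to 4, against 691 to 1820 CPM in other kept cells. The 5 that were measured passed the minimum through the neutrophils' own UMIs and so had to be higher. Slfn4, a schlafen protein, stood at 2874, 2046, 4957 and 2763 CPM in sets 1 to 4 against 19.1 to 78.0. Isg15, a ubiquitin-like modifier, stood at 3095, 2587, 4414 and 1359 CPM against 23.2 to 92.8, and was found in 66 of the 84 cells. Oas1a, a sensor of double-stranded RNA, stood at 1346, 1223, 1239 and 883 CPM against 10.6 to 97.8, and Ifit3, an antiviral protein, at 2813, 1685, 1471 and 1064 CPM against 17.0 to 94.9. Ifitm1, a membrane protein that blocks virus entry, had a log2 ratio of 5.42 to 6.82. Other members were sparse: Mx1 had no UMI in the 84 cells, Rsad2 9 and Irf7 12.

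The promoters of these genes were read on both strands for a form of the interferon-stimulated response element, GAAA followed by any 2 bases and a second GAAA (on the other strand TTTC, any 2 bases and TTTC). The 300 bases of RefSeq build GRCr8, from 250 before to 50 after the start, were matched by gene symbol. Oas1a lies at chr12:41330216-41330515 on the plus strand, Ifit3 at chr1:241527076-241527375 on the plus strand and Slfn4 at chr10:68491970-68492269 on the plus strand. Matches are in capitals.
Oas1a: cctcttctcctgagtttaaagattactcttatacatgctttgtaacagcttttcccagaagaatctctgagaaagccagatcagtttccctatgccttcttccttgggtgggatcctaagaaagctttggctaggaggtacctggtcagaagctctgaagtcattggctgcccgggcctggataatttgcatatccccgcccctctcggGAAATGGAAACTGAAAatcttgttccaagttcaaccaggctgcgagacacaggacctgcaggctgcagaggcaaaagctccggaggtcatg
Ifit3: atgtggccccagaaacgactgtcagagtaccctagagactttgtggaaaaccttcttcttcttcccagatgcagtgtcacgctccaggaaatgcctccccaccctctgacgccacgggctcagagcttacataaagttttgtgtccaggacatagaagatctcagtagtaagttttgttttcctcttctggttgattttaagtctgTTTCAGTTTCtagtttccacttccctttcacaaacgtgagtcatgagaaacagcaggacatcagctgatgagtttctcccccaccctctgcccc
Slfn4: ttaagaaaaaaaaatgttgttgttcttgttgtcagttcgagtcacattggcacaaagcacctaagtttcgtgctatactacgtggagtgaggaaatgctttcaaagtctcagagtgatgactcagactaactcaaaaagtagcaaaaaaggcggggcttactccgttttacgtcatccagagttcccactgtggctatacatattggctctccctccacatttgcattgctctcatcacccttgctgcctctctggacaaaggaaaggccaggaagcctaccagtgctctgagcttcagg
In Oas1a, 2 overlapping matches began 41 and 35 bases before the start, and in Ifit3 a match on the minus strand began 44 bases before it. Slfn4 held none of these letters in this window. Isg15 and Ifitm1 were not among the matched promoters. The motif was held by 3.92% of all 33469 promoters of that table, against 11 of 18 promoters of the interferon list and 4 of the 59 found for genes higher in the 84 cells, or 12 of the 212 found for all measured genes. A second motif, TTNNGCAA on either strand (TTGCNNAA), a form bound by C/EBP factors, was in 10.6% of all promoters and in 7 of the same 59, with 2 matches in that of Mmp8 and none in that of S100a9. A match is a description and not a bound site.

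MHC class II genes summed to 563, 712, 155 and 611 CPM in the 84 cells of sets 1 to 4, against 4654 to 9355 CPM in other kept cells. Cd74, the MHC class II invariant chain, stood at 221, 241, 155 and 272 CPM against 2129 to 3488. In the 93 cells only RT1-Da of this list was lower in every set: the list's sum was 4355 CPM in set 3 with that set's Mzb1 cell and 155 CPM without it. Of 4 measured MHC class I genes, Psmb9, a subunit of the immunoproteasome, was higher, with a log2 ratio of 1.34 to 2.76, and none was counted as lower. Of all measured genes 27.5% were higher and 39.9% lower. B2m, the class I light chain, did not differ by as much as 2-fold in any set, with log2 ratios of -0.16 to 0.33. Of 9 measured lysosome and phagocytosis genes 3 were lower, a share below the 39.9% of all measured genes. They were the protease Ctsl, at 20.1 to 77.4 CPM against 667 to 885, the cholesterol carrier Npc2 and the membrane protein Lamp1. Of the 2 measured cell cycle genes, Stmn1, a microtubule regulator of dividing cells, was lower, with a log2 ratio of -5.40 to -3.70. Hmgb2, a chromatin protein, was higher, with a log2 ratio of 1.26 to 2.51. Stmn1 passed the minimum only through expected UMIs and Hmgb2 only through neutrophil UMIs, so the pair gives no direction for the list. Mki67 had 1 UMI and Top2a none. C1qa and C1qb were lower, but the rule had capped them.

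**Figure D2:**
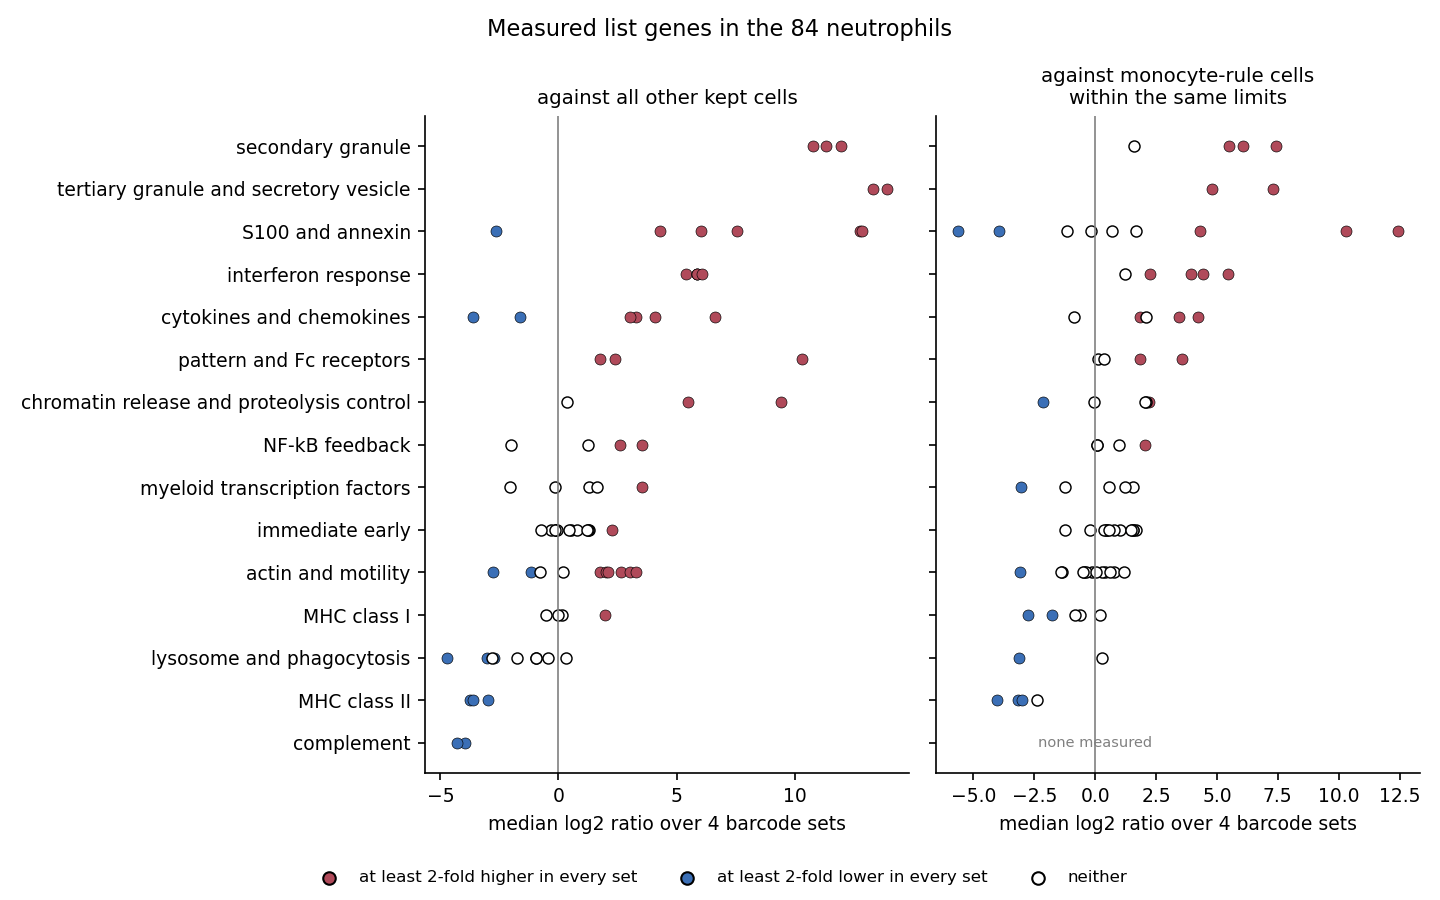
Median log2 ratio over the 4 barcode sets (x) of each measured gene of 15 lists (y) in the 84 neutrophils, against other kept cells (left) and against 122 cells of the monocyte rule within the same limits (right); red points were at least 2-fold higher and blue at least 2-fold lower in every set. Retnlg reaches a log2 ratio of 13.90 on the left and MHC class II genes lie below 0 on both sides.

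Ribosomal protein genes were scarce in the neutrophils. Their 100 genes made up 1.50, 1.54, 1.82 and 2.82% of UMIs in the 84 cells of sets 1 to 4, against 7.84 to 8.82% in other kept cells, and the ranges did not overlap. Of 52 measured ribosomal protein genes 41 were lower in every set and none higher, against 39.9% lower and 27.5% higher of all measured genes. In the 93 cells ribosomal protein genes made up 5.84% of UMIs and none of 64 was called. This result was thus seen only with the 9 deep cells left out. Mitochondrial genes made up 3.08 to 3.39% of UMIs against 5.60 to 7.75%. The neutrophils also held fewer genes at equal depth: thinned to 1000 UMIs, 83 of the 84 had a median of 386 genes, against 468 in 13101 C1q-rich cells and 535 in 119 of the monocytes described next. S100a8 and S100a9, which chose the cells, were kept in this thinning and made up a median of 16.9% of a neutrophil's UMIs. The difference in gene number is thus in part set by the rule.

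**Figure D3:**
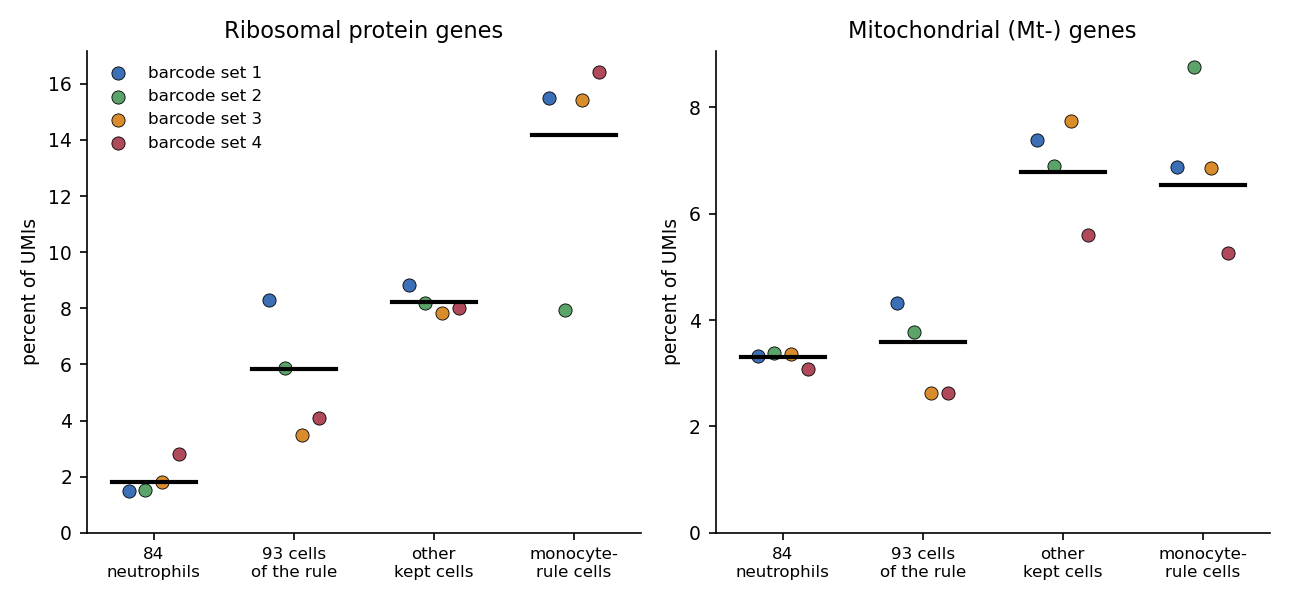
Percent of UMIs (y) from ribosomal protein genes (left) and mitochondrial genes (right) in 4 cell classes, with a point per barcode set and a line at the value over all sets. The 84 neutrophils lie at 1.50 to 2.82% for ribosomal protein genes, below every set of the other kept cells and of the 122 monocyte-rule cells.

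Monocytes, the other class compared, were taken as kept cells with at least 1 UMI of Napsa and 3 of Lyz2 that were not neutrophils. That rule gave 269 cells, of which only 122 (14, 19, 26 and 63 in sets 1 to 4) also kept within the limits on C1q, endothelial and oligodendrocyte genes. The 19 of these cells in set 2 also held astrocyte markers at 4852 CPM and vessel wall markers at 2971 CPM, against at most 27.4 and 420 CPM in the other sets. The 269 cells also held neutrophil markers, at 4923, 18595, 127 and 68.4 CPM in sets 1 to 4, and the 122 at 91.9 to 536 CPM. Single cells of the 269 reached 894 S100a8 and 1726 S100a9 UMIs. The 269 are thus no clean monocyte class. Single cells of the 122 reached only 11 and 14, but the rules fix this. Within the limits, a cell with at least 10 UMIs of both genes counted as a neutrophil and could not be among the 122. Of the 84 neutrophils, 71 held Napsa and 81 held Lyz2. The low S100 and granule levels of the 122 are therefore no support for the 122 as a clean class. Against the 269 cells, 48 of 691 measured genes were higher in the 93 neutrophils (6.95%) and 85 lower (12.3%). With the 84 against the 122, 43 of 311 were higher (13.8%) and 102 lower (32.8%), and the median of all measured genes was -0.27. Here too 40 of the 43 higher genes passed the minimum only through neutrophil UMIs, and 88 of the 102 lower genes only through expected ones. Among the named genes counted against the 269 cells, those whose median changed sign against the 122 were C1qa, C1qb, C1qc, Ccl4, Anxa3, Stmn1 and Tmem176b. Named genes that were not counted changed sign too, among them Lyz2, Fcnb and Sgk1. C1qa, for example, had a median log2 ratio of -4.13 against the 269 cells and 1.24 against the 122, where it was too sparse to be measured.

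Secondary granule genes summed to 301 to 674 CPM and tertiary granule genes to 208 to 1705 CPM in the 122 monocyte-rule cells, below every set of the 84 neutrophils. Chi3l1, a chitinase-like protein and the other measured secondary granule gene, was not counted, with a median log2 ratio of 1.58 (0.63 to 2.06). Mmp8, Retnlg and Stfa2 had no UMI in them, so that their per-set log2 ratios of at least 4.74, 6.35 and 2.66, with a floor of 3 counts per set, are lower bounds. Pglyrp1, with no UMI in 2 sets of these cells, had a median log2 ratio of at least 7.44, Mcemp1 4.14 and Anxa1 4.29. Interferon-response genes summed to 2751 to 5665 CPM, below every set of the neutrophils, with median log2 ratios of 5.45 for Oas1a, 4.42 for Ifit3, 3.91 for Isg15 and 2.25 for Slfn4. Ifitm1, at 1105 to 1698 CPM in neutrophils against 234 to 1096, did not reach 2-fold in every set. Ifit1bl, an interferon-induced gene named for its change, stood at 884, 913, 1239 and 362 CPM against at most 23.1.

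Of 5 measured cytokine genes 3 were higher than in the 122 cells, Osm, Cxcl2 and Ccl6, with medians of 4.21, 3.46 and 1.84. All 3 passed the minimum only through the neutrophils' own UMIs, and 13.8% of all measured genes were higher. Il1b missed the call through set 1, where it stood at 7355 CPM against 5845. Nlrp3, the sensor of the inflammasome, and Sod2 were higher with medians of 2.23 and 2.04, while Pycard, the inflammasome adaptor, was lower. S100a4 and S100a10, other S100 proteins, were lower: S100a4 stood at 20.1, 10.0, 0 and 113 CPM against 1062 to 3131. Csf1r, the macrophage growth factor receptor, had a median log2 ratio of -3.29 and Klf4, a monocyte transcription factor, of -3.06. Cybb, the large membrane subunit of the NADPH oxidase, was lower in every set, with 22 UMIs in 5 of the 84 cells. Cd74 was lower with a median of -4.05, and 3 of 4 MHC class II genes were lower, against 32.8% of all measured genes. These 3 passed the minimum only through expected UMIs. The list's sum in the 122 cells was uneven, at 2297, 4460, 13102 and 27296 CPM in sets 1 to 4. Dendritic cell markers in them stood at 0, 0, 82.2 and 482 CPM, and T cell markers at 23.1 to 384 CPM. The part of such cells in these ratios was not tested.

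Some genes did not separate the classes. Lyz2 stood at 10832, 10289, 6351 and 8084 CPM in the neutrophils and at 18415, 2567, 13095 and 8242 CPM in the 122 cells, and Napsa at 1064 to 1875 against 577 to 1446 CPM. These genes chose the monocytes, so the values describe how far the rules part. Cxcr4 had log2 ratios of -1.28 to 1.25 and Cebpb a median of 0.56. Ribosomal protein genes made up 14.2% of UMIs in the 122 cells. Of 59 measured, 57 were lower in the neutrophils, against 32.8% of all measured genes.

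The neutrophils of the 4 sets were not alike. Over the 93 cells, 543 of 716 genes with at least 50 UMIs differed at least 2-fold between the highest and the lowest set (75.8%), and over the 84 cells 227 of 437 (51.9%). Set 3 held only 6 cells and 12912 UMIs, and the part of sampling in these counts was not tested. Ngp, Camp and Lcn2 were named for large ratios that came from the cell of set 4 that held all Ngp UMIs. Hba-a2 stood at 422, 351, 77.4 and 22.6 CPM, and was also higher in the other kept cells of sets 1 and 2.

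Serpinb1a, an inhibitor of neutrophil serine proteases, stood at 4160 and 4152 CPM in sets 1 and 2, and at 774 (371 to 1424) and 430 (259 to 672) CPM in sets 3 and 4. It was found in 16 of 19 and 36 of 38 cells in sets 1 and 2, and in 3 of 6 and 3 of 21 in sets 3 and 4. In other kept cells it stood at 33.0 to 47.8 CPM in all sets. Fos, an immediate early transcription factor, ran the other way, at 3758 and 3741 CPM in sets 1 and 2 and 13398 and 12341 CPM in sets 3 and 4, against 3972 to 5164 in other kept cells. Atf3, a stress-induced factor, stood at 502, 1003, 5189 and 3533 CPM. The median cell held Fos at 1283 and 1707 CPM in sets 1 and 2 and at 13601 and 16949 CPM in sets 3 and 4, so that no single cell carried the difference. Vegfa, the vascular growth factor, stood at 322, 10.0, 542 and 883 CPM, from 3, 1, 2 and 9 cells.

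The immediate early list as a whole summed to 35751, 35983, 69393 and 61911 CPM in the neutrophils of sets 1 to 4, against 32873, 36686, 27657 and 34352 CPM in other kept cells. Immediate early genes also respond to tissue dissociation, and its part in these values was not tested. The heat shock gene Hspa1b stood at only 40.2, 150, 155 and 181 CPM in the neutrophils against 1538, 1918, 3646 and 4311 CPM in other kept cells.

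**Figure D4:**
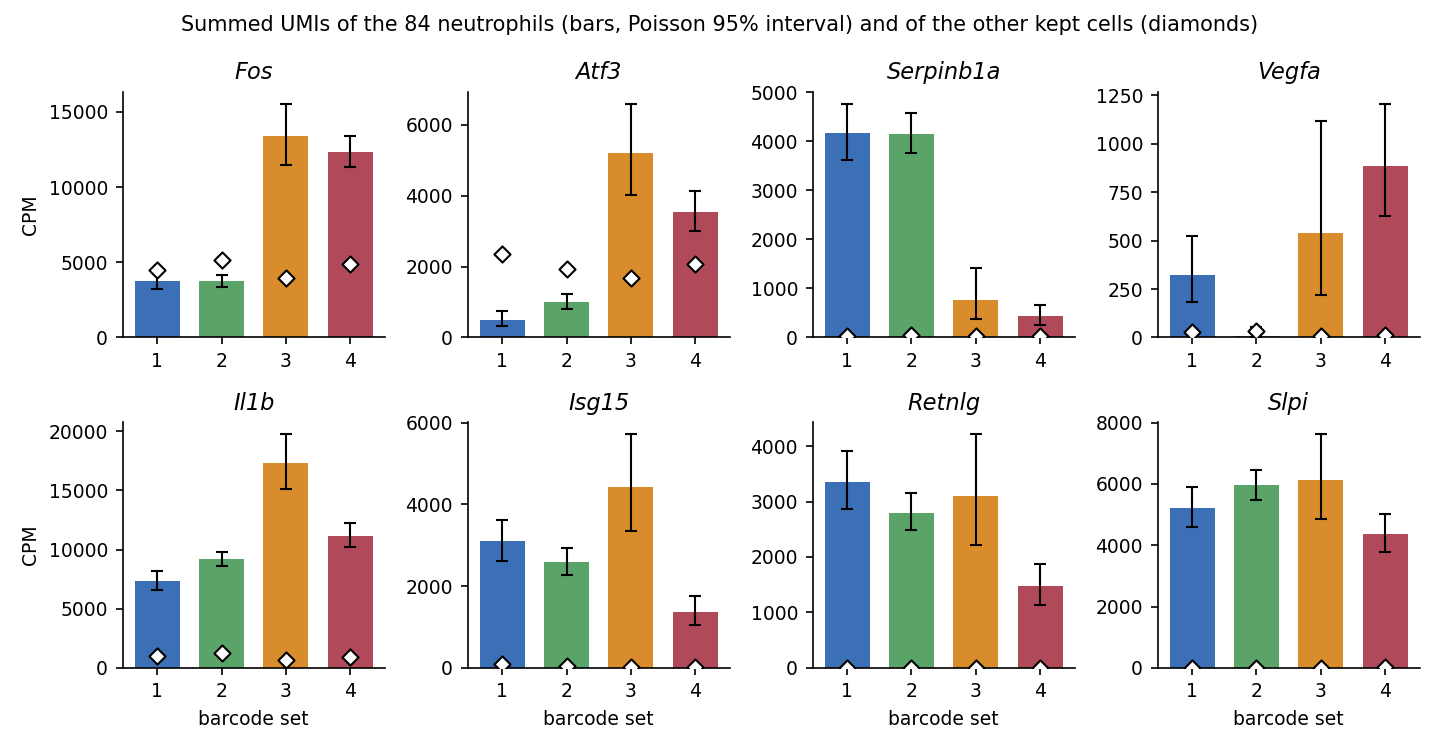
CPM (y) of 8 genes in the summed UMIs of the 84 neutrophils of each barcode set (bars, with Poisson 95% intervals for counting error) and in the other kept cells (diamonds). Fos and Atf3 are higher in sets 3 and 4, Serpinb1a in sets 1 and 2, and Vegfa is lowest, at 10.0 CPM, in set 2.

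Pooled over the sets, secondary granule and cytokine levels of single cells had a negative Spearman rho, which was weak in set 2 (-0.13 over 37 cells). To compare cells at 1 depth, 80 of the 84 cells were thinned to 1000 UMIs after S100a8 and S100a9 were taken out. Secondary granule genes then ranged from 0 to 148 UMIs per cell with a median of 4, and cytokine and chemokine genes from 0 to 97 with a median of 25. Across cells the secondary granule level had a positive Spearman rho with the S100a8 and S100a9 share of UMIs (0.71), with tertiary granule genes (0.58) and with actin and motility genes (0.58). It had a negative rho with myeloid transcription factors (-0.61), cytokines and chemokines (-0.43) and immediate early genes (-0.43), and one of -0.11 with interferon-response genes. Junb and Nr4a1 are on both the transcription factor list and the immediate early list. Among 319 genes found in at least 30% of cells, Retnlg (0.58), Tmsb4x (0.53), Tkt and Mcemp1 (both 0.47) had the highest rho, and Il1b (-0.54), Junb (-0.50) and G0s2 (-0.43) the lowest.

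The same level also had a rho of 0.57 with the UMIs of a cell before thinning, and the part of depth in the pattern was not tested. Without the cell that held all Ngp UMIs, the rho with cytokines was -0.40 over 79 cells. Within sets, granule and cytokine levels had rho -0.47, -0.13, -0.52 and -0.88 in sets 1 to 4, over 17, 37, 6 and 20 cells. The sign was the same in all 4 sets and the size was not. No other rho was taken within sets. The other values pool sets that differed in S100 share and in immediate early level, and the part of the sets in them was not tested. Cells of a set share a library, so these values are descriptions without a test. With all cells of the rule, 89 after thinning, the rho with cytokines was -0.26 and that with the S100 share 0.74.

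**Figure D5:**
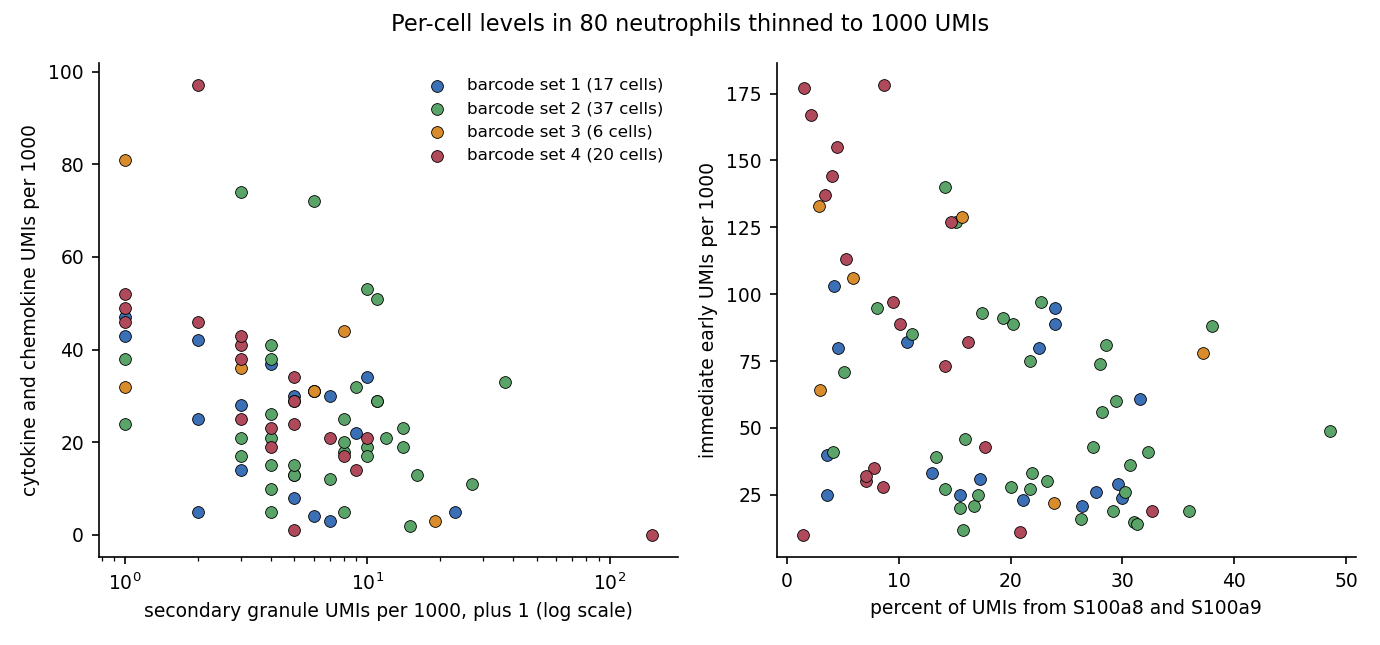
Each point is 1 of 80 neutrophils thinned to 1000 UMIs without S100a8 and S100a9, coloured by barcode set: secondary granule UMIs plus 1 (x, log scale) against cytokine and chemokine UMIs (left), and the percent of UMIs from S100a8 and S100a9 against immediate early UMIs (right). The cell with 148 granule UMIs has 0 cytokine UMIs, and the immediate early level reaches 178 UMIs in a cell of set 4 with an S100 share of 8.64%.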

How the data were processed

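Single-cell RNA was measured in 4 titled hippocampus samples held in 1 matrix. The authors deposited UMI counts per gene and cell, not normalized, for 31638 barcodes and 32623 genes. Per the file headers the matrix came from cellranger 5.0.0, and the submitters' processing notes name Cell Ranger, STAR and Rnor_6.0. Barcode sets could not be tied to samples, so samples stayed unassigned and no condition was compared. The kept cells' sets held 42224749, 45310928, 34992907 and 53010515 UMIs outside the neutrophils.

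Counts were summed per class and set and divided by all UMIs of that sum to give CPM. With pooled, unassigned sets no p-value was computed, and intervals (exact Poisson or binomial, 95%) cover counting error only. The rule, members and lists were chosen with earlier results of these data known. Named genes were the 12 highest and 8 lowest counted in every set per comparison, the 2 highest and the lowest measured members of each of 26 lists, the rule and marker genes, and 8 genes by their ratio between sets; others are named where a count or a single cell is described. Of 414 list entries 15 and of 159 marker entries 15 matched no gene. For each of 147 symbols shared by several genes, only the gene with the most UMIs was counted. Doublets were called with Scrublet's method at an expected 6% and kept. Alternatives changed the rule's limits, the cell filter, the scaling (TMM of edgeR 4.0.16), the minimum counts, the depth and the sets used. The ratio step was tested on simulated data with known changes. Promoter sequences are from RefSeq GRCr8, matched by symbol; the counts' own coordinates were not used. Values of 1 measured gene are not reported here. Python 3.11.15, numpy 2.4.6, scipy 1.17.1, pandas 2.3.3 and R 4.3.3 were used.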

Additional observations from a re-analysis of the deposited data

How the results depend on the processing

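Allowing none of the other types' UMIs gave a share of 0.142%, 44 genes higher and 48 lower than in other kept cells, 25 higher and 39 lower than in monocytes, and 177 apart between sets. The mean of per-cell CPM gave 268 lower than in other kept cells and 193 lower than in monocytes. A minimum of 5 observed plus expected UMIs gave 164 and 295 against other kept cells and 75 and 150 against monocytes, and a minimum of 30 gave 28, 60, 18 and 29, since it changes how many genes are measured. Thinning to 1000 UMIs gave 38 higher and 59 lower than in other kept cells, 25 higher than in monocytes and 121 apart between sets. For differences between sets, a minimum of 20 UMIs gave 1251 and of 100 gave 279. Leaving out each barcode set in turn gave shares of 0.242 to 0.365%, 88 to 228 higher and 175 to 253 lower than in other kept cells, 49 to 117 higher and 101 to 156 lower than in monocytes, and 274 to 386 apart. The highest 4 gene counts came without set 3 and the lowest share without set 2.

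Alternatives added after seeing the data left out the 9 cells, which gave 227 apart between sets, the cell with Ngp, or S100a8 and S100a9 from the totals. Against monocytes within the limits, the log2 ratio turned positive for Anxa3 (1.03), Ccl4 (0.40), C1qa (0.50) and C1qb (0.47). With the 9 cells also left out it was positive for Anxa3 (1.34), Ccl4 (1.32), Stmn1 (0.67), C1qa (1.24), C1qc (0.81), Tmem176b (0.57) and C1qb (1.03), and the cause was not tested. Among named genes counted in a comparison, no other changed direction under the alternatives run; named genes that were not counted did, such as Lyz2, Fcnb and Sgk1. No paired analysis was possible because the results come from no test; class ratios were already taken within each barcode set. With 84 to 93 cells, genes under about 10 UMIs per set could not be compared.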
